A study of Mus musculus with 12 samples.

Results

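Heat shock proteins and J-proteins were compared between newborn mouse brains in which Reck was targeted in vascular cells and wild-type brains, in cortex and in subcortex. The members are all genes whose symbol begins with Hsp90, with Hspa, Hspb, Hspd, Hspe or Hsph and a number, or with Dnaja, Dnajb or Dnajc and a number. These symbols gave 72 genes of the 23979 in the tables. The rule uses symbols only, though it was chosen with earlier results of these data known. The knockout brains (vKO) carried 1 flex2 and 1 Δex1 allele of Reck together with Tie2Cre, a Cre driver known to be active in endothelial cells and in the blood lineage. The WT brains are labelled only as wild type. Both genotypes are of mixed strain and postnatal day 0, and each of the 4 groups (vKO cortex, WT cortex, vKO subcortex, WT subcortex) holds 3 libraries of stranded total RNA from flash-frozen tissue. The labels give neither the animals behind the libraries nor their sex, and do not say whether WT animals carried Cre.

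Hsp70 proteins bind unfolded stretches of other proteins in a cycle driven by ATP. J-proteins, the DnaJ family, deliver the client and start the hydrolysis step, and nucleotide exchange factors such as the Hsp110 proteins reset it. Hsp90 takes over clients such as kinases and steroid receptors at a later stage of folding, the chaperonin Hsp60 with its lid Hsp10 folds proteins inside mitochondria, and small heat shock proteins hold unfolded proteins until the ATP-driven chaperones act. Heat shock factor HSF1 drives the inducible cytosolic genes through inverted repeats of the letters GAA in their promoters, while BiP and Grp94 of the endoplasmic reticulum (ER) belong to the unfolded protein response.

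All values are FPKM, fragments scaled by transcript length and by library size, with 1 value per gene and group computed by the authors from the replicates. No spread between replicates and no depth can be given for any value, and no test of the difference between tissues could be run. A gene was called higher or lower in vKO where its q-value in the authors' deposited table was under 0.05, and "rose" and "fell" are used only of such genes. Ratios are log2((vKO FPKM + 1)/(WT FPKM + 1)), which understate the change of genes at low levels. Of the 72 members, 64 were tested in cortex and 63 in subcortex. The 8 left out of both tests were under 1 FPKM in all 4 groups, and Hspb3 was tested in cortex only.

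A few facts of the libraries bear on all that follows. Reck itself stood at 3.23 FPKM in vKO cortex and 2.91 in WT cortex, and at 3.49 in vKO subcortex and 2.37 in WT subcortex, without a call in either tissue. A gene-level value does not separate the targeted alleles from intact transcripts. The cortex marker Emx1 stood at 15.3 FPKM in vKO cortex and 13.3 in WT cortex, against 0.113 in vKO subcortex and 0.106 in WT subcortex. Tcf7l2, a thalamic marker, stood at 1.07 FPKM in vKO cortex and 4.71 in WT cortex. In cortex the 6 microglia and macrophage markers summed to 133 FPKM in vKO and 36.1 in WT, with 5 of the 6 called higher. In subcortex they summed to 73.1 FPKM in vKO and 58.6 in WT, with 1 called higher. The 3 erythroid markers found summed to 36.2 FPKM in vKO cortex and 6.05 in WT cortex, and to 7.12 in vKO subcortex and 5.68 in WT subcortex. The 3 radial glia and astrocyte markers summed to 1192 FPKM in vKO cortex and 883 in WT cortex. Most of that sum was Fabp7, at 965 in vKO cortex and 723 in WT cortex. Vim stood at 171 in vKO cortex and 99.9 in WT cortex, while Slc1a3 was lower in vKO, at 55.5 against 59.9. The 3 meningeal fibroblast markers summed to 38.4 in vKO cortex and 26.7 in WT cortex. In each of these 2 lists, 2 markers were called higher in vKO cortex and none was called in subcortex. Xist, expressed in females, stood at 18.6 FPKM in vKO cortex against 0.0417 in WT cortex, and at 10.2 in vKO subcortex against 0.0369 in WT subcortex, and the Y-linked Eif2s3y stood at 15.8 in vKO cortex against 30.4 in WT cortex. The sex makeup of the groups thus differed between genotypes. None of the markers found was at 0 in either genotype. The part of cell makeup, blood and sex in the results below was not tested, and in bulk tissue fewer cells of a type and less RNA per cell cannot be told apart.

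In cortex, 10 of the 64 tested members rose in vKO (15.6%) and 1 fell (1.56%), against 8.15% of all tested genes called higher and 11.3% called lower. The risers were the inducible Hsp70 genes Hspa1a and Hspa1b, the cytosolic Hsp90 gene Hsp90ab1, the mitochondrial co-chaperonin Hspe1, the small heat shock gene Hspb8, and the J-protein genes Dnaja2, Dnajb6, Dnajc2, Dnajc7 and Dnajc8. The endosomal J-protein gene Dnajc13 fell. In subcortex, Hspb1 alone rose among 63 tested members, and none fell, against 0.452% of all tested genes called higher and 0.262% called lower. At an unadjusted p-value under 0.05, the authors' deposited table held 12 members higher and 5 lower in cortex, and 2 higher and 2 lower in subcortex. Over all tested genes, it held 2047 higher and 2319 lower of 13591 in cortex. In subcortex, it held 479 higher and 388 lower of 13732. The member called with the highest q-value in cortex was Hsp90ab1 (q = 0.0409 in the authors' deposited table), and the first one past the threshold was Hspa9 (q = 0.0613 in the same table).

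**Figure D1:**
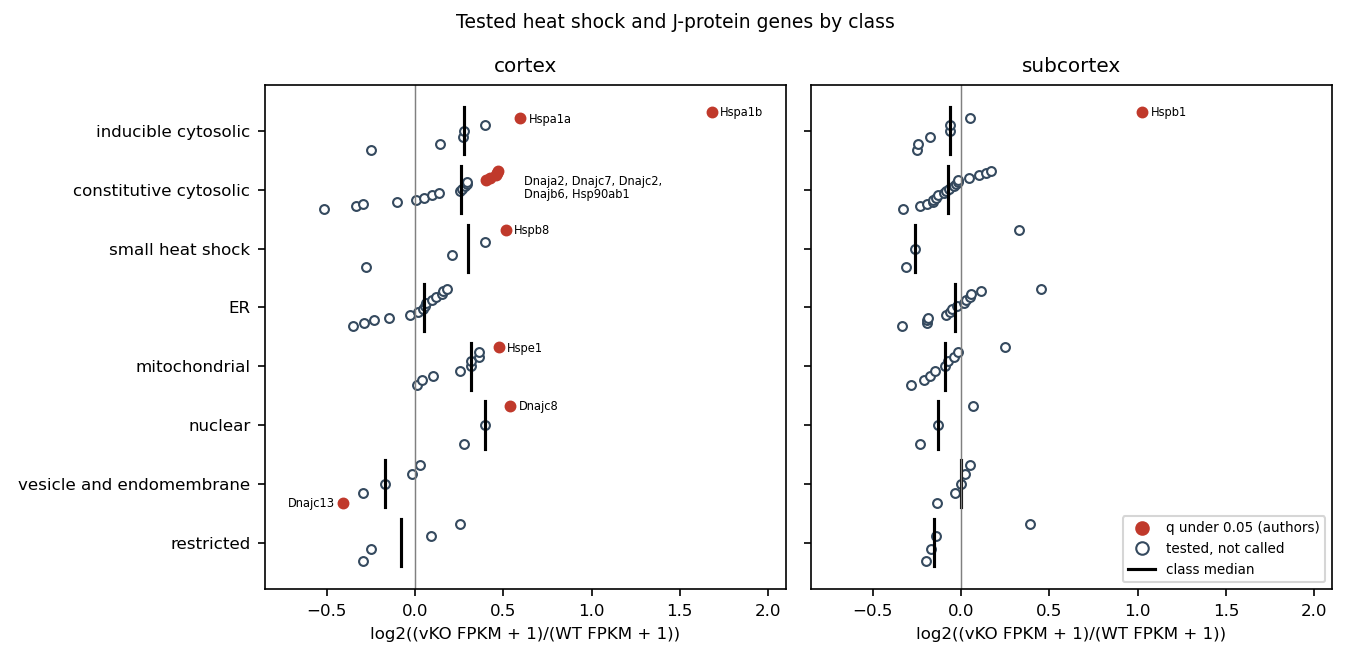
Each point is a tested member, placed by its log2((vKO FPKM + 1)/(WT FPKM + 1)) on the horizontal axis and by class on the vertical axis, in cortex (left) and subcortex (right); filled points have a q-value under 0.05 in the authors' deposited table and black bars are class medians. Hspa1b stands apart at 1.68 in cortex, and Hspb1 at 1.02 in subcortex.

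The largest ratio in cortex belonged to the stress-inducible Hsp70 pair. Hspa1b stood at 6.49 FPKM in vKO cortex and 1.34 in WT cortex, and at 3.67 in vKO subcortex and 4.54 in WT subcortex. WT cortex was thus the low group, and the genotypes stood in the opposite order in subcortex. Its cortex ratio was 1.68, or 4.86-fold without the pseudocount (q = 0.000806 in the authors' deposited table). Hspa1a, its neighbour on chromosome 17, stood at 1.33 FPKM in vKO cortex and 0.537 in WT cortex, and at 1.69 in vKO subcortex and 1.81 in WT subcortex. Again WT cortex was the lowest of the 4 groups, and the cortex ratio was 0.60 (q = 0.00576 in the authors' deposited table). Both genes consist of 1 exon on the minus strand in mm10, with Hspa1b at chr17:34956436-34959238 and Hspa1a at chr17:34969190-34972156.

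The near-identity of the pair limits how far their reads can be told apart. Of the 50-base windows of the Hspa1b transcript, 62.3% also occur in Hspa1a, and 58.8% of those of Hspa1a occur in Hspa1b. Since reads may have been split between them, the sum of both genes is given as well, although it too shifts somewhat with the split, as FPKM divides by each gene's own length, and 66.3% of the Hspa1a windows occur in other genes of any kind. The sum was 7.81 FPKM in vKO cortex and 1.87 in WT cortex, and 5.36 in vKO subcortex and 6.34 in WT subcortex. As a share of Hspa8, the constitutive Hsp70, that sum came to 0.658% in vKO cortex and 0.190% in WT cortex, against 0.546% in vKO subcortex and 0.589% in WT subcortex. WT cortex therefore stood below the other 3 groups. The ratio of Hspa1b to Hspa1a was 4.89 in vKO cortex, against 2.49 in WT cortex, 2.17 in vKO subcortex and 2.51 in WT subcortex.

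The 250 bases before the transcript start are shown for 4 of the called members whose window holds a heat shock element-like match: the inducible Hsp70 pair, the co-chaperonin Hspe1, and Hspb1, the subcortex riser. They come from RefSeq on GRCm38.p6, run 5′ to 3′ on the strand of the gene, and have in capitals every match to GAANNTTC or TTCNNGAA, which are 2 inverted GAA units in either arrangement. Each motif reads the same on both strands. The windows are chr17:34959239-34959488 (minus strand) for Hspa1b, chr17:34972157-34972406 (minus strand) for Hspa1a, chr1:55087898-55088147 (plus strand) for Hspe1 and chr5:135887669-135887918 (plus strand) for Hspb1.
Hspa1b: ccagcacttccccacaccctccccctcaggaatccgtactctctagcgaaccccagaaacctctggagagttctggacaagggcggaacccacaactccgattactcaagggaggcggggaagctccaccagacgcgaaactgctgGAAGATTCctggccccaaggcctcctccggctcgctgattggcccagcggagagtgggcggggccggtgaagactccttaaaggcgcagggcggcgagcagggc
Hspa1a: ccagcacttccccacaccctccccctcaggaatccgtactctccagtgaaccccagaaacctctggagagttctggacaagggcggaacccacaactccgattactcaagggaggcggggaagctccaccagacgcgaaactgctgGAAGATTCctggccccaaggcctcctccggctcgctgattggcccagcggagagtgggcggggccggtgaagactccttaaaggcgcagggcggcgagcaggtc
Hspe1: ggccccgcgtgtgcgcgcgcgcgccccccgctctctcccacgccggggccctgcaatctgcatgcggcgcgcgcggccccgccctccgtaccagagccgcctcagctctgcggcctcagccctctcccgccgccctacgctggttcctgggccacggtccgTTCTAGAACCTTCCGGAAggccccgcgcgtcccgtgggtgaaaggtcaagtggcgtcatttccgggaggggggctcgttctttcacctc
Hspb1: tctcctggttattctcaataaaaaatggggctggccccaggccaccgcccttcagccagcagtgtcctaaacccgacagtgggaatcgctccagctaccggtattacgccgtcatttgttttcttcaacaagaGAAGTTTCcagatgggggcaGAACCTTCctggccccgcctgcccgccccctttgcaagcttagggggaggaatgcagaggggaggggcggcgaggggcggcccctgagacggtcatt
The windows of Hspa1a and Hspa1b were identical at 247 of 250 positions. Written with the Hspa1a base first and counted from 1 at the 5′ end of the window, the differences were C44T, T47C and T249G. In both, the match GAAGATTC began 104 bases before the start. Hspe1 held 3 overlapping matches that began 89, 84 and 79 bases before its start, and Hspb1 held 2, at 117 and 97 bases.

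A match to either motif is a description of letters and no binding site. Of all 32851 promoter windows in the table, 12.8% held one, and of all 27025 genes with a window 14.5% did. Among the 58 members with a window, 14 did (24.1%). The class of inducible cytosolic members had a match in 5 of 6 genes, with Dnajb1 the exception, whereas ER members had one in 1 of 12, constitutive cytosolic members in 3 of 14 and mitochondrial members in 2 of 6. Small heat shock members had one in 2 of 5 and vesicle and endomembrane members in 1 of 4. Nuclear members had one in 0 of 3, and members known mainly from testis or motile cilia in 0 of 8. Of the members that rose in cortex, 8 have a window and 4 of these held a match, namely Hspa1a, Hspa1b, Hspe1 and Dnajb6. The matches counted here are not all separate. The 2 mitochondrial genes with a match, Hspe1 and Hspd1, hold the same stretch of DNA read from opposite strands. Hspa1a and Hspa1b, with nearly identical windows, count as 2 genes in the inducible class and among the risers. Hsp90aa1 and Hsp90ab1 are among the members for which no window was used here.

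The other inducible cytosolic members were not called in cortex. Hsp90aa1, the stress-inducible cytosolic Hsp90, stood at 360 FPKM in vKO cortex and 297 in WT cortex, and at 402 in vKO subcortex and 420 in WT subcortex. Dnajb1, the Hsp40 that works with inducible Hsp70, stood at 19.6 FPKM in vKO cortex and 17.7 in WT cortex, and at 19.8 in vKO subcortex and 19.1 in WT subcortex. Dnaja1, a type A J-protein, stood at 40.9 FPKM in vKO cortex and 33.7 in WT cortex, and at 35.0 in vKO subcortex and 39.7 in WT subcortex. The q-values of these 3 genes in cortex were 0.258, 0.561 and 0.290 in the authors' deposited table. Hsph1, a heat-inducible Hsp110, ran the other way, with 31.9 FPKM in vKO cortex and 38.1 in WT cortex (q = 0.227 in the authors' deposited table), and 25.4 in vKO subcortex and 30.3 in WT subcortex. Of the 7 members of this class, 2 rose in cortex and 1 rose in subcortex, and their median ratios were 0.28 in cortex and -0.06 in subcortex.

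Hspb1, the inducible small heat shock protein Hsp25 of the mouse, was the subcortex riser. It stood at 6.32 FPKM in vKO subcortex and 2.60 in WT subcortex, and at 2.83 in vKO cortex and 1.91 in WT cortex. The vKO subcortex group was thus the high one, above the other 3. The subcortex ratio was 1.02, close to the threshold (q = 0.0491 in the authors' deposited table), and the cortex ratio was 0.40 (q = 0.271 in the authors' deposited table). Of the windows of Hspb1 (chr5:135887919-135889563, 2 exons), 51.6% also occur in other transcripts, which include the pseudogene Hsp25-ps1. Some vessel markers moved in the same tissue: Cdh5 and Pecam1, 2 of the 5 endothelial markers, were called higher in vKO subcortex. So were Acta2 and Pdgfrb, 2 of the 3 mural markers. The most abundant marker of each list was lower in vKO without a call. Cldn5 stood at 37.6 FPKM in vKO subcortex and 42.1 in WT subcortex, and Rgs5 at 25.8 in vKO and 27.9 in WT. Kdr and Plvap lay above WT, also without a call. The 5 endothelial markers summed to 64.6 FPKM in vKO subcortex and 59.5 in WT subcortex, and the 3 mural markers to 34.5 in vKO and 32.7 in WT. Their part in the Hspb1 value was not tested.

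**Figure D2:**
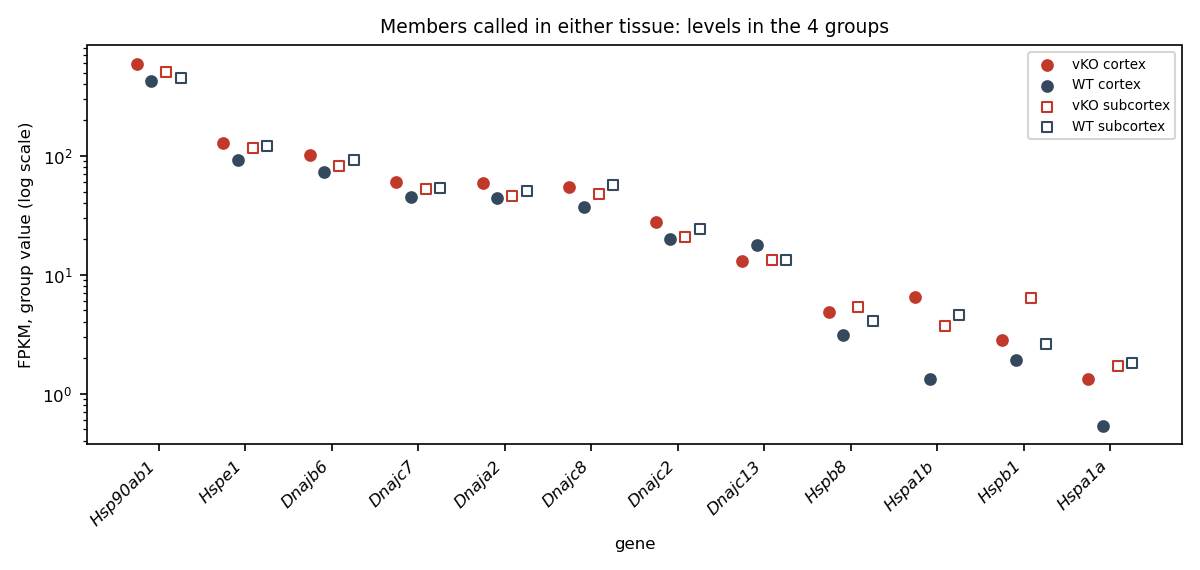
Group FPKM on a log axis for each member called in either tissue, ordered by mean level; filled circles are cortex, open squares subcortex, with vKO left of WT in each pair. Single group values are drawn without error bars, since the tables hold none. WT cortex is the lowest of the 4 groups for all 10 genes that rose in cortex. The same holds for 78.4% of all genes that rose there and were tested in both tissues.

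Among the constitutive cytosolic members, 5 of 18 rose in cortex, none fell, and none was called in subcortex. Hsp90ab1, the constitutive cytosolic Hsp90, stood at 595 FPKM in vKO cortex and 429 in WT cortex, a ratio of 0.47, and at 505 in vKO subcortex and 449 in WT subcortex. Both vKO groups lay above both WT groups. Hspa8, the constitutive Hsp70 (Hsc70) and the most abundant member, stood at 1187 FPKM in vKO cortex and 986 in WT cortex (q = 0.379 in the authors' deposited table), and at 983 in vKO subcortex and 1078 in WT subcortex. Of its transcript windows, 74.8% occur in other genes, so its level is uncertain. Together with both cytosolic Hsp90 genes it made up 57.1% of the summed FPKM of all members in vKO cortex and 54.8% in WT cortex, and 54.7% in vKO subcortex and 53.5% in WT subcortex. The ratio of Hsp90aa1 to Hsp90ab1 was 0.604 in vKO cortex and 0.692 in WT cortex, and 0.796 in vKO subcortex and 0.935 in WT subcortex. Of the windows of Hsp90aa1, 58.5% occur in other transcripts, against 4.49% of those of Hsp90ab1, so this ratio is uncertain too.

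The cytosolic J-proteins supplied the other 4 risers of this class. Dnajb6, which is known to keep polyglutamine proteins from aggregating, stood at 102 FPKM in vKO cortex and 73.6 in WT cortex, and at 82.3 in vKO subcortex and 92.2 in WT subcortex. Of the windows of Dnajb6, 42.8% occur in other transcripts, so its level is uncertain. Dnaja2, a type A partner of Hsc70, stood at 58.7 FPKM in vKO cortex and 44.1 in WT cortex, and at 45.5 in vKO subcortex and 50.9 in WT subcortex. Dnajc7, whose TPR repeats bind Hsp70 and Hsp90, stood at 60.3 FPKM in vKO cortex and 44.6 in WT cortex, and at 52.8 in vKO subcortex and 53.5 in WT subcortex. For these 3 genes vKO cortex was the highest and WT cortex the lowest of the 4 groups. Dnajc2, the ribosome-bound J-protein, stood at 27.7 FPKM in vKO cortex and 19.9 in WT cortex, and at 20.6 in vKO subcortex and 24.4 in WT subcortex, in the same order. Cortex ratios ran from 0.40 for Dnaja2 to 0.46 for Dnajb6, and the q-values from 0.0156 to 0.0368 in the authors' deposited table. Such an order is common among all genes that rose in cortex and were tested in both tissues. Of those genes, 66.6% had vKO cortex as the highest group and 78.4% had WT cortex as the lowest.

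The remaining Hsp70 and Hsp110 members of the cytosol were not called. The Hsp110 exchange factor Hspa4 stood at 60.8 FPKM in vKO cortex and 60.5 in WT cortex, and at 49.7 in vKO subcortex and 57.1 in WT subcortex. Its relative Hspa4l stood at 15.1 FPKM in vKO cortex and 14.5 in WT cortex, and at 22.3 in vKO subcortex and 23.9 in WT subcortex. Summed with Hsph1, these exchange factors came to 108 FPKM in vKO cortex and 113 in WT cortex, against 97.4 in vKO subcortex and 111 in WT subcortex, so the sum was the lower one in vKO in both tissues. Hspa14, which works at the ribosome together with Dnajc2, stood at 25.8 FPKM in vKO cortex and 20.8 in WT cortex (q = 0.191 in the authors' deposited table), and at 20.0 in vKO subcortex and 21.2 in WT subcortex. Hspa12a, a distant Hsp70 relative, stood at 26.8 FPKM in vKO cortex and 28.8 in WT cortex, and at 27.2 in vKO subcortex and 27.5 in WT subcortex.

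Hspa12b, the distant relative known from endothelial cells, had the lowest ratio of all tested members in cortex. It stood at 1.57 FPKM in vKO cortex and 2.67 in WT cortex, and at 3.17 in vKO subcortex and 3.29 in WT subcortex. The vKO cortex value was the low one, but the cortex ratio of -0.52 was not called (q = 0.736 in the authors' deposited table). In the same tissue the 5 endothelial markers summed to 49.4 FPKM in vKO and 72.3 in WT, with Cldn5 and Kdr called lower and Plvap called higher. Whether the Hspa12b value went with them was not tested.

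All 9 mitochondrial members had ratios above 0 in cortex, with a median of 0.32 and 1 call, but with the trend of length and GC content taken off 5 of the 9 were above 0 and the median was 0.10. In subcortex 1 of the 9 was above 0, and the median was -0.09. Hspe1, the Hsp10 lid of the chaperonin, rose, at 128 FPKM in vKO cortex and 92.2 in WT cortex (ratio 0.47, q = 0.0159 in the authors' deposited table), and stood at 115 in vKO subcortex and 122 in WT subcortex. Its partner Hspd1, the Hsp60 ring, stood at 87.2 FPKM in vKO cortex and 69.9 in WT cortex (q = 0.115 in the authors' deposited table), and at 74.9 in vKO subcortex and 86.7 in WT subcortex. For both genes vKO cortex was the highest and WT cortex the lowest of the 4 groups. The annotated genes lie head to head and overlap at their starts, with Hspe1 at chr1:55088132-55091307 on the plus strand and Hspd1 at chr1:55077835-55088243 on the minus strand, and the Hspe1 window shown above lies within the annotated Hspd1 gene. How the counting treated strand is unknown here, so reads of the overlap may be shared. The ratio of Hspe1 to Hspd1 was 1.47 in vKO cortex and 1.32 in WT cortex, and 1.54 in vKO subcortex and 1.40 in WT subcortex. In each of the genes, 44.8% of the windows occur in other transcripts.

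Hspa9, or mortalin, the Hsp70 of the import motor, stood at 80.3 FPKM in vKO cortex and 62.2 in WT cortex, just outside the threshold, and at 65.8 in vKO subcortex and 66.5 in WT subcortex. The other 6 members of the class are J-proteins. They include Dnajc19, a part of the import motor, with 35.3 FPKM in vKO cortex and 28.1 in WT cortex, and 31.9 in vKO subcortex and 32.9 in WT subcortex. Dnajc15, an inner membrane J-protein, stood at 27.2 FPKM in vKO cortex and 20.9 in WT cortex, and at 40.7 in vKO subcortex and 45.3 in WT subcortex, so that both subcortex groups lay above both cortex groups. None of these J-proteins was called.

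The chaperones of the ER gave no call in either tissue. BiP, encoded by Hspa5, stood at 103 FPKM in vKO cortex and 105 in WT cortex (q = 0.936 in the authors' deposited table), and at 93.0 in vKO subcortex and 118 in WT subcortex (q = 0.758 in the authors' deposited table). Grp94, encoded by Hsp90b1, stood at 106 FPKM in vKO cortex and 95.2 in WT cortex, and at 105 in vKO subcortex and 120 in WT subcortex. WT subcortex was the highest group for both genes, and neither differed by 1.5-fold in either tissue. Hspa13, a microsomal Hsp70 relative, stood at 21.5 FPKM in vKO cortex and 20.1 in WT cortex, and at 24.1 in vKO subcortex and 23.8 in WT subcortex. Over the 14 ER members the median ratio was 0.05 in cortex and -0.04 in subcortex, with cortex ratios between -0.35 and 0.18. The lowest of these was Dnajc16, at 5.37 FPKM in vKO cortex and 7.12 in WT cortex, and the next member outside the threshold on the lower side (q = 0.0733 in the authors' deposited table). Dnajb12, an ER membrane J-protein, had the highest ER ratio in subcortex, at 13.8 FPKM in vKO and 9.82 in WT (q = 0.383 in the authors' deposited table), against 11.8 in vKO cortex and 11.6 in WT cortex.

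Dnajc8, a J-protein of the spliceosome, rose in cortex, with 54.6 FPKM in vKO and 37.3 in WT (ratio 0.54, q = 0.00256 in the authors' deposited table). Its level was 48.0 FPKM in vKO subcortex and 56.5 in WT subcortex, so WT cortex was the low group here too. Of the other nuclear members, the histone chaperone Dnajc9 stood at 35.3 FPKM in vKO cortex and 28.9 in WT cortex, and at 29.6 in vKO subcortex and 32.5 in WT subcortex. Dnajc17, a J-protein linked to splicing, stood at 12.5 FPKM in vKO cortex and 9.26 in WT cortex, and at 11.1 in vKO subcortex and 10.6 in WT subcortex.

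Vesicle and endomembrane J-proteins held the member that fell. Dnajc13, or RME-8, which works with Hsc70 on endosomes, stood at 13.2 FPKM in vKO cortex and 17.8 in WT cortex (ratio -0.41, q = 0.0217 in the authors' deposited table), and at 13.4 in both vKO and WT subcortex. WT cortex was the high group and the other 3 were alike. Dnajc5, the cysteine string protein of synaptic vesicles, stood at 68.2 FPKM in vKO cortex and 69.1 in WT cortex, and at 90.1 in vKO subcortex and 87.0 in WT subcortex. Dnajc6, or auxilin, which strips clathrin from vesicles, stood at 30.3 FPKM in vKO cortex and 37.4 in WT cortex (q = 0.136 in the authors' deposited table), and at 56.6 in vKO subcortex and 57.9 in WT subcortex. The class median was -0.17 in cortex and -0.00 in subcortex.

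Hspb8, a small heat shock protein that acts with Bag3, rose in cortex, with 4.83 FPKM in vKO and 3.08 in WT (ratio 0.51, q = 0.0283 in the authors' deposited table). Its level was 5.35 FPKM in vKO subcortex and 4.06 in WT subcortex (q = 0.906 in the authors' deposited table), with vKO above WT in both tissues. Hspb11, known as the intraflagellar transport protein Ift25, stood at 15.0 FPKM in vKO cortex and 11.2 in WT cortex, and at 11.8 in vKO subcortex and 14.9 in WT subcortex. Hspb6, or Hsp20, stood at 1.29 FPKM in vKO cortex and 1.77 in WT cortex, and at 1.61 in vKO subcortex and 2.13 in WT subcortex. Hspb2 and Hspb7 were under 1 FPKM in all groups and were not tested.

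The members known mainly from testis or from motile cilia were low. Dnajb3 stood at 4.16 FPKM in vKO cortex and 3.86 in WT cortex, and at 3.74 in vKO subcortex and 4.45 in WT subcortex. The testis Hsp70 gene Hspa2 stood at 2.29 FPKM in vKO cortex and 2.90 in WT cortex, and at 3.31 in vKO subcortex and 3.75 in WT subcortex. Hspa1l, a neighbour of the inducible pair, stood at 3.41 FPKM in vKO cortex and 2.70 in WT cortex, and at 2.54 in vKO subcortex and 2.99 in WT subcortex, but 71.4% of its windows occur in other transcripts. None of these was called. Dnajc5g was listed at 0 in all 4 groups.

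Over all tested members, 47 of 64 ratios were above 0 in cortex (73.4%), against 50.4% of all tested genes, and 18 of 63 were above 0 in subcortex (28.6%), against 49.8% of all tested genes. The members' median ratio was 0.14 in cortex and -0.07 in subcortex, against 0.00 in cortex and -0.00 in subcortex for all tested genes. Of the 63 members tested in both tissues, 33 were above 0 in cortex and below 0 in subcortex (52.4%, against 24.6% of all genes tested in both), and 5 had the opposite pattern (7.94%, against 23.6%). WT cortex was the lowest of the 4 groups for 39 of the 63 members (61.9%), against 4215 of all 13167 genes tested in both tissues, and vKO cortex was the highest for 20 (31.7%), against 24.8%. All 10 members that rose in cortex had WT cortex as the lowest group, as did 78.4% of all genes that rose there and were tested in both tissues. For 7 of these 10 members (70.0%) vKO cortex was the highest group, against 66.6% of all genes that rose there. These shares compare group values across 2 tables that the authors may have scaled separately, and the median level of the 12662 genes used to check this was 11.1 FPKM in vKO cortex, 11.5 in WT cortex, 11.6 in vKO subcortex and 11.5 in WT subcortex.

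The cortex ratios moved with transcript length across all genes, and the members shared that trend. Spearman's rho between ratio and length was -0.535 over the 64 members and -0.551 over 13455 genes in cortex, and 0.155 over 63 members and 0.021 over 13604 genes in subcortex. Genes in the shortest length decile had a median cortex ratio of 0.36, and those in the longest decile one of -0.35. With the median ratio of genes of like length and GC content taken off, the inducible pair stood at 1.69 for Hspa1b and 0.62 for Hspa1a. Dnajb6 kept 0.43, and Hsp90ab1 kept 0.32. Smaller values remained for Hspb8 (0.34), Dnajc2 (0.30), Dnajc7 (0.28), Dnaja2 (0.25) and Dnajc8 (0.25). Hspe1, with a short transcript, came to 0.10, and Dnajc13, with a transcript of 8012 bases, to -0.13. The members' median became 0.06 in cortex, with 40 of 64 above 0, and -0.04 in subcortex. Of the radial glia and astrocyte markers in cortex, Fabp7 came to 0.17, against 0.42 before, and Vim to 0.65, against 0.77. Slc1a3 came to -0.04, against -0.11. What the trend arises from was not tested.

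**Figure D3:**
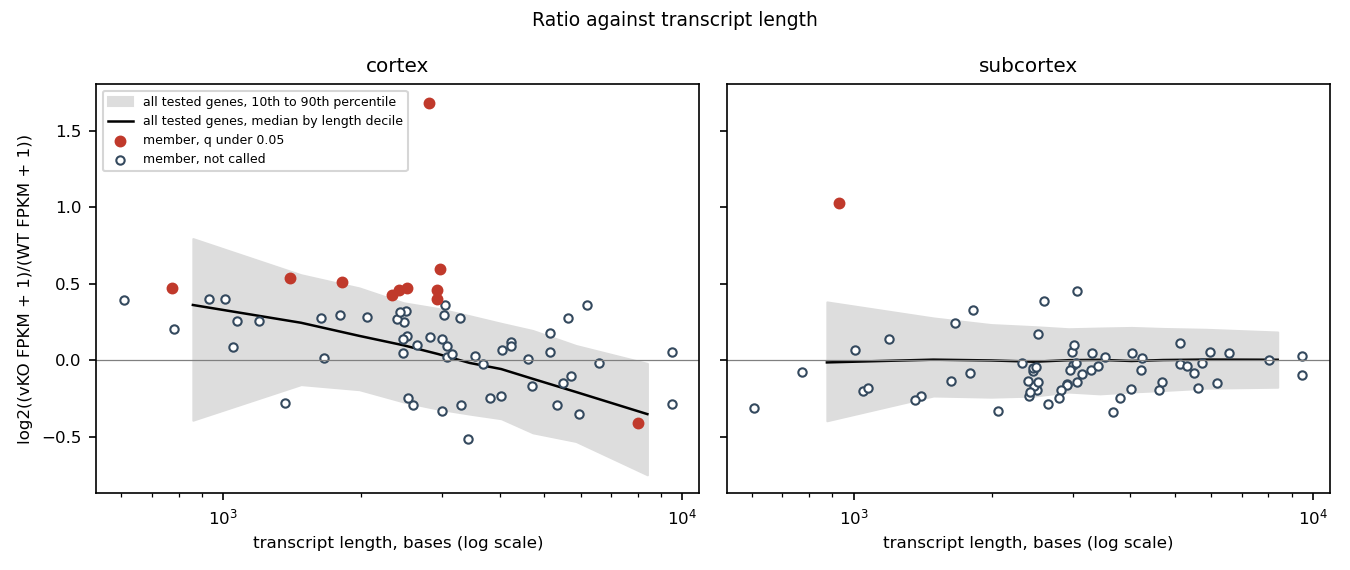
Log2((vKO FPKM + 1)/(WT FPKM + 1)) against transcript length in bases on a log axis, in cortex (left) and subcortex (right). The line is the median of all tested genes by length decile, the grey band their 10th to 90th percentile, filled points are called members and open points the other members. In cortex the line falls with length (median 0.36 for the shortest and -0.35 for the longest genes), and Hspa1b lies far above it.

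Between the tissues most members stood at similar levels. Of the 64 members that reached 1 FPKM in some group, 4 differed by at least 1.5-fold in the same direction in both genotypes. Hspb3, a small heat shock protein known from muscle, was the one higher in cortex: it stood at 5.31 FPKM in cortex and 0.422 in subcortex of vKO brains, and at 4.46 in cortex and 0.563 in subcortex of WT brains, ratios of 12.6 in vKO and 7.93 in WT. Dnajc12, which serves the aromatic amino acid hydroxylases that make dopamine and serotonin, stood at 2.36 FPKM in cortex and 8.22 in subcortex of vKO brains, and at 1.74 in cortex and 7.58 in subcortex of WT brains. Dnajc6 and Dnajc27, a Rab-like GTPase with a J domain, were the other genes lower in cortex, with cortex to subcortex ratios of 0.536 in vKO and 0.646 in WT for Dnajc6, and of 0.485 in vKO and 0.499 in WT for Dnajc27. Hspa1b differed by at least 1.5-fold in opposite directions, with a cortex to subcortex ratio of 1.77 in vKO and 0.294 in WT. A further 12 members passed 1.5-fold in 1 genotype only.

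**Figure D4:**
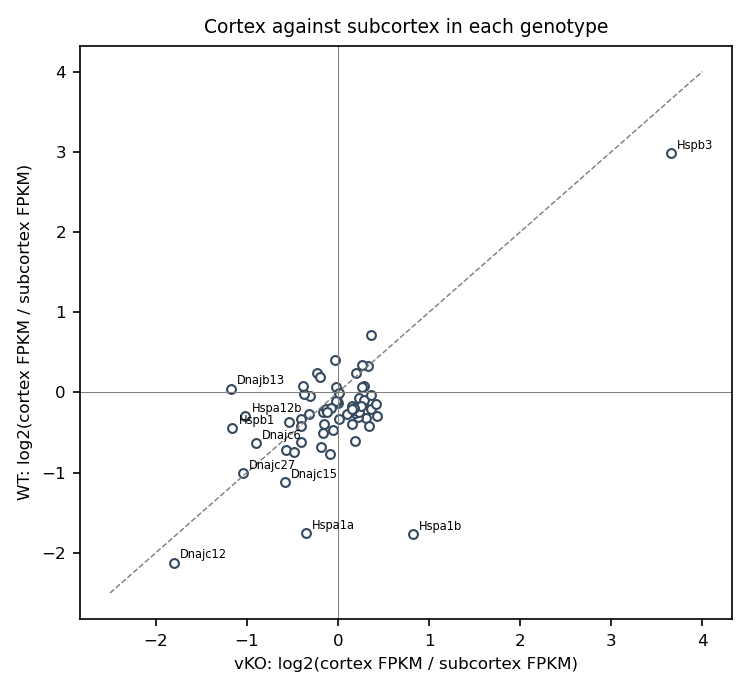
Each point is a member with at least 1 FPKM in some group, placed by log2 of its cortex over its subcortex FPKM in vKO (horizontal) and in WT (vertical); the dashed line marks equal ratios. Hspb3 lies at the upper right and Dnajc12 at the lower left, and Hspa1b lies far below the line, with 1.77 in vKO and 0.294 in WT on the linear scale.

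The wider chaperone network was read from 52 further genes, of which 49 were tested in cortex and 48 in subcortex. In cortex 11 of them rose (22.4%) and 1 fell (2.04%), against 8.15% of all tested genes called higher and 11.3% called lower, with a median ratio of 0.27, or 0.14 after the length and GC trend was taken off. In subcortex none was called, while 1 was higher and 2 lower at an unadjusted p-value under 0.05 in the authors' deposited table. Of all 13732 genes tested in subcortex, 479 were higher and 388 lower by the same measure. The prefoldin subunits Pfdn1 and Pfdn5, which hand actin and tubulin to the cytosolic chaperonin, were among the risers. Pfdn1 stood at 54.2 FPKM in vKO cortex and 36.0 in WT cortex, and Pfdn5 at 270 in vKO cortex and 173 in WT cortex, each with q = 0.000806 in the authors' deposited table. Hscb, the J-protein of mitochondrial iron-sulfur cluster assembly, stood at 7.14 FPKM in vKO cortex and 3.41 in WT cortex (q = 0.00535 in the authors' deposited table). Bag1, a nucleotide exchange factor of Hsp70, stood at 88.2 FPKM in vKO cortex and 61.3 in WT cortex (q = 0.00691 in the authors' deposited table). Hyou1, the large Hsp70 relative that serves BiP, was the gene that fell, with 16.3 FPKM in vKO cortex and 22.2 in WT cortex (q = 0.0215 in the authors' deposited table). The cortex ratios were 0.58 for Pfdn1, 0.64 for Pfdn5, 0.88 for Hscb, 0.52 for Bag1 and -0.42 for Hyou1. With the length and GC trend taken off, they were 0.21, 0.23, 0.51, 0.24 and -0.23 in the same order. Hsf1, the regulator itself, stood at 8.43 FPKM in vKO cortex and 11.3 in WT cortex (q = 0.0825 in the authors' deposited table), and at 7.80 in vKO subcortex and 8.82 in WT subcortex, without a call in either tissue.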

How the data were processed

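RNA-seq of 12 libraries was read from 2 deposited tables, 1 per tissue. Per the submitters' processing notes, the build is mm10, and Cuffdiff, Cufflinks 2.2.1 and HISAT2 2.0.1 were used. Each table holds 1 FPKM value per gene and group, computed by the authors, per the file headers. The p-values and q-values were deposited by the authors, and genes under a q-value of 0.05 were counted as called. The columns' letters W and M were read as WT and vKO. Whether counting used strand and which annotation was used are not given in the sources used here. Of 23983 entries per table, 4 with repeated symbols were left out.

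Computed here, with Python 3.11.15, pandas 2.3.3 and numpy 2.4.6, were ratios with a pseudocount of 1 FPKM, counts and medians by class (8 classes from textbook roles), shared 50-base windows in GENCODE M21 transcripts, and motif matches. The length and GC trend is the median ratio in 100 bins of length and GC content of the longest protein-coding transcript, and its removal was tested on simulated data. Of the members, 58 matched a RefSeq promoter. Of their 75 windows, which include 50 bases past the start, 62 had the first 30 of these in an annotated transcript of the gene. Named with values are the inducible class, Hsp90 and Hspa genes reaching 1 FPKM, called members, the 2 most abundant of each class, those beside the threshold, and the partners with the 4 lowest q-values per direction. Others named were chosen after their values were seen. The classes and lists, like the members, were chosen with earlier results of these data known. Replicates may be technical, since nothing says they came from separate animals. Marker genes found were compared by group value. One marker is not reported here.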

Additional observations from a re-analysis of the deposited data

How the results depend on the processing

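No paired analysis was possible because the tables hold 1 value per group and none per replicate, and leaving out replicates could not be run for the same reason. Of the results that answer a comparison, 15 values moved, while 59 stayed within 1.5-fold of a count or 0.1 of a log2 median. Apart from the other q-value thresholds, each setting for the counts of called members only filtered the authors' calls. Such a setting could neither raise a count nor move a count of 0. Taking off the median or the trend checked only the sign of called members, so these unmoved counts say little. The 36 checks on single genes kept their direction, but they carry the authors' own q-values, so their side of the threshold could not change, and their size did: with the trend taken off, Hspe1 was 0.10, against 0.47, and Dnajc13 was -0.13, against -0.41. In cortex, the count of members higher in vKO was 3 at a q-value under 0.01 in the authors' deposited table and 3 with at least 1.5-fold, against 10. The count lower was 0 at a q-value under 0.01 and 2 at a q-value under 0.1 in the authors' deposited table, and 0 with at least 1.5-fold, against 1. In subcortex, the count higher was 0 at a q-value under 0.01 in the authors' deposited table, and 0 among members with under 50% shared windows, a limit chosen after seeing the data. With the length and GC trend taken off, cortex medians were 0.12 for constitutive cytosolic, 0.18 for inducible cytosolic, 0.10 for mitochondrial, 0.032 for nuclear, -0.29 for restricted, -0.0061 for small heat shock (a change of sign) and -0.069 for vesicle members, and the subcortex median of small heat shock members was -0.15. The subcortex medians of ER members (-0.037 to 0.033) and of vesicle members (-0.00056 to 0.013) changed sign too, but stayed within 0.1. The cause was not tested. Depth is unknown, so values of low members such as Hspa1a carry no counting interval.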

Other observations

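Choroid plexus and neuronal markers gave values that belong to no comparison of the chaperones. The 3 choroid plexus markers summed to 494 FPKM in vKO cortex and 515 in WT cortex, and to 729 in vKO subcortex and 494 in WT subcortex, with none called. Nearly all of the subcortex sum was Ttr, at 719 in vKO and 484 in WT. Folr1 stood at 6.37 in vKO subcortex and 4.91 in WT subcortex, and Kcnj13 went the other way, at 3.96 in vKO and 5.10 in WT. Among the neuronal markers, Neurod6, of cortical excitatory neurons, stood at 168 FPKM in vKO cortex and 98.3 in WT cortex and was called higher, while Gad1, of inhibitory neurons, stood at 26.5 in vKO cortex and 39.9 in WT cortex and was called lower. Cryab, the small heat shock protein alpha-B crystallin, stood at 6.14 FPKM in vKO cortex and 3.88 in WT cortex (q = 0.0824 in the authors' deposited table), and at 2.95 in vKO subcortex and 3.08 in WT subcortex. These genes were chosen after their values were seen.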
